A study of Rattus norvegicus with 16 samples.

Results

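The genes described here encode the proteasome, its activators, its inhibitor and its assembly factors in rat skeletal muscle. They are the protein-coding genes of the deposited table whose symbol starts with Psma, Psmb, Psmc, Psmd, Psme, Psmf or Psmg followed by a digit. The rule selected 47 of 31141 genes, of which 23096 are protein-coding. By role they were 7 alpha and 4 noncatalytic beta subunits of the core, 3 constitutive and 3 inducible catalytic subunits, 6 ATPase and 11 non-ATPase subunits of the regulatory cap, 2 inducible activator subunits, 3 other activators or inhibitors and 5 assembly factors. The remaining 3, Psmc3ip, Psme3ip1 and Psme1-ps1, match the rule by name but are no subunits. In all, 29 rows whose description names the proteasome are no members. Among them, a row described as proteasome subunit alpha 3 carries no symbol in the table, so it is no member and was not analysed here. No gene with the symbol Psmd9 or Psmd10 is among the 47.

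The proteasome is the barrel-shaped protease that degrades proteins tagged with ubiquitin, and it carries much of the protein breakdown of skeletal muscle. Rings of alpha subunits gate the barrel, the inner rings of beta subunits hold the catalytic sites, and a cap of ATPase and non-ATPase subunits recognises, unfolds and feeds in the substrate. Interferon-gamma induces alternative catalytic subunits, Psmb8, Psmb9 and Psmb10, which take the places of Psmb5, Psmb6 and Psmb7 to form the immunoproteasome. Cells of the immune system carry it without induction, and the peptides it makes are loaded onto class I molecules of the major histocompatibility complex. Psme1 and Psme2, also inducible by interferon-gamma, form an activator ring that docks onto the core in place of the cap.

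Messenger RNA of the tibialis anterior, a muscle of the lower leg, was sequenced in 16 libraries from rats of the Wistar-Imamichi background. DMD_KD comprised 6 libraries of Dmd-mutant rats on the MCTKD diet, DMD_ND comprised 6 libraries of Dmd-mutant rats on a normal diet, and WT_ND comprised 4 libraries of wild-type rats on the normal diet. The labels do not name the mutant allele and do not spell out MCTKD, usually read as a ketogenic diet rich in medium-chain triglycerides. Rats of all 3 groups received their diet between weaning and an age of 9 months, and no wild-type rats on MCTKD were among the samples. Whether each library stands for its own animal is not stated in the labels, so p-values measure only the spread between these samples, which may be technical.

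Values are deposited FPKM, fragments per kilobase of gene length at a common library size, which allow levels to be compared between genes. Reads assigned to genes numbered 17125084 to 28116085 per library. Dmd, which encodes dystrophin, was at 0.546 to 2.04 FPKM in DMD_KD and 1.37 to 1.98 FPKM in DMD_ND, against 4.13 to 11.9 FPKM in WT_ND. The 6 mature fibre markers in the table summed to at least 18006 FPKM in every library. The deposited FPKM hold the typical gene level between libraries: their size factors averaged 1.10 in DMD_KD, 1.23 in DMD_ND and 0.714 in WT_ND. With each library scaled to an equal total instead, called TPM scaling here, the median of all tested genes moved to a log2 difference of 0.83 for DMD_ND over WT_ND, against -0.04 on the deposited scale. DMD_KD replicate 3 and WT_ND replicates 1 and 4 stood apart from their groups: limma array weights were 0.129 for DMD_KD replicate 3, 0.283 for WT_ND replicate 1 and 0.238 for WT_ND replicate 4, and between 0.744 and 2.42 for the other libraries.

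Promoters of 4 of the 5 inducible subunits are shown because interferon acts on such genes through short DNA elements near the start of transcription, and that of Psmb5 is shown as a constitutive partner. RefSeq windows of 300 bases on build GRCr8 around the gene start, most of each upstream of it, were matched by symbol to 42 of the 47 genes. Each window is written from its 5′ end along the gene's strand, and capitals mark the core of the interferon-stimulated response element, which is GAAA, any 2 bases and GAAA again, on either strand. In Psmb5 they mark the core of the antioxidant response element, TGACNNNGC, which the factors Nfe2l1 and Nfe2l2 recognise, and in Psmb9 nothing is marked. The window of Psme1, the fifth inducible subunit, is not printed and held none of the letters searched, which says only that they are not in this window. The windows lie at chr20:4656982-4657281 on the minus strand for Psmb8, chr19:50743243-50743542 on the minus strand for Psmb10, chr15:33052702-33053001 on the minus strand for Psme2, chr20:4668750-4669049 on the plus strand for Psmb9 and chr15:32047330-32047629 on the minus strand for Psmb5.
Psmb8: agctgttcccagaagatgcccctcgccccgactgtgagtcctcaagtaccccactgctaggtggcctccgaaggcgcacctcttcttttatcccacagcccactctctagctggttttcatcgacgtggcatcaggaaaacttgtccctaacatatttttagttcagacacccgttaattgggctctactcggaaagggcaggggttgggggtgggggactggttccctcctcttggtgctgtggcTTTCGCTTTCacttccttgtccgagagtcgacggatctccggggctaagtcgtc
Psmb10: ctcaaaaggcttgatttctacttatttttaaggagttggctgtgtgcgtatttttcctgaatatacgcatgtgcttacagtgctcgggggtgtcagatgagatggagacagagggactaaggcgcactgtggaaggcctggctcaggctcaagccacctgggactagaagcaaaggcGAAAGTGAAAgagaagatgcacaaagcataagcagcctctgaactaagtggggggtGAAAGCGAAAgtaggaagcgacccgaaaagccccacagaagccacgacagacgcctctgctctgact
Psme2: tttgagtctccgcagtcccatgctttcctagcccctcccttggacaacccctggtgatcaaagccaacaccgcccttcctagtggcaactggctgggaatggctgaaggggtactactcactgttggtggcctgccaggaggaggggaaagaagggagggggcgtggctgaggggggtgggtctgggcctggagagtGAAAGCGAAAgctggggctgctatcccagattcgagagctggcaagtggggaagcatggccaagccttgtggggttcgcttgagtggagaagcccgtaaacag
Psmb9: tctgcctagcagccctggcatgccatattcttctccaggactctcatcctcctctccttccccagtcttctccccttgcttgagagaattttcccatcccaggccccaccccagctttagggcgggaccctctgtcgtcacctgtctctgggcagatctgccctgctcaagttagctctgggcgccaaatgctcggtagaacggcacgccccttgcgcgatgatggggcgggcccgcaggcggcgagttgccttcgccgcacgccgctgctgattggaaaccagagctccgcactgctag
Psmb5: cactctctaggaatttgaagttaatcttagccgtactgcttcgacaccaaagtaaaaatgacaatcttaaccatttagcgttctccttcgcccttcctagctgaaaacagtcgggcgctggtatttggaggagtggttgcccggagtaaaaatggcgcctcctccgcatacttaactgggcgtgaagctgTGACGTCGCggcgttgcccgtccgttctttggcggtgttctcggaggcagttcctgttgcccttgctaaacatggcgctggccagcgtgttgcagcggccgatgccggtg

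The interferon-stimulated response element core was present in 7 of the 42 windows (16.7%), against 3.92% of all 33469 promoter windows. Psmb10 held it at 2 places, starting at bases 178 and 234 counted from 1 at the 5′ end of the window, Psmb8 at base 247 on the other strand and Psme2 at base 198. The other windows with it belonged to Psma4, Psmb3, Psmd7 and Psmg4, none of them an inducible subunit. The antioxidant response element core was present in 6 of 42 windows (14.3%) against 12.1% of all, among them the constitutive catalytic subunits Psmb5 and Psmb6. The interferon-gamma activated site TTCNNNGAA was present in 4 of 42 windows (9.52%) against 8.87% of all. The windows with it belonged to Psmb8, Psmc6, Psmd3 and Psmd7. In the printed Psmb8 window it lies at bases 6 to 14 and is not in capitals. The CCAAT box was present in 20 of 42 windows (47.6%) against 37.5%, and the ETS motif CCGGAAG in 17 of 42 (40.5%) against 8.75%. All motifs were searched on both strands, and these 5 were chosen after a wider look at the promoters. A match describes the letters of the window and shows no binding, and a window without one says nothing about the factor.

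**Figure D1:**
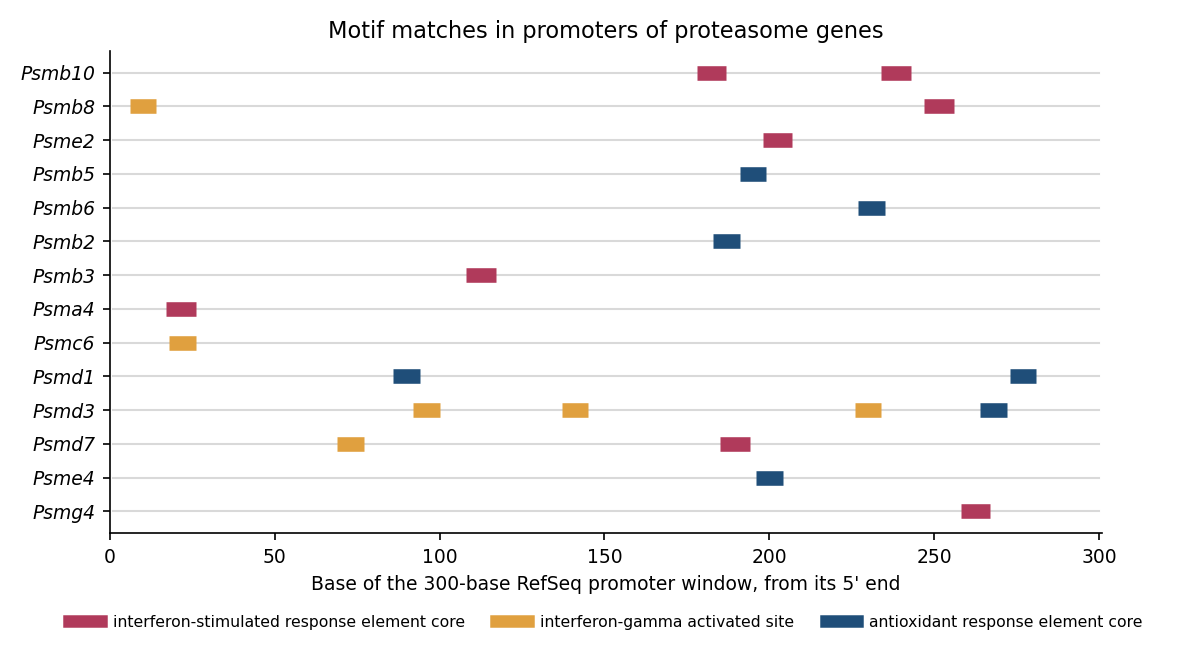
Each line is the 300-base promoter window of a proteasome gene, with the base counted from the 5′ end on the horizontal axis, and each block is a motif match on either strand. Psmb10 carries the interferon-stimulated response element core at bases 178 and 234, Psmb8 at base 247 and Psme2 at base 198; genes with none of the 3 motifs shown are left out.

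The catalytic subunits stood at opposite ends of the range of levels. Psmb7, the constitutive subunit of the trypsin-like site, had the highest mean FPKM of the 47 genes in every group, at 173.3 ± 52.5 FPKM in DMD_KD (SD, n = 6), 145.8 ± 5.44 in DMD_ND (n = 6) and 215.0 ± 51.5 in WT_ND (n = 4). Psmb6 and Psmb5 came next and did not differ from each other beyond their spread. Of the 47 genes ordered by mean level from the highest, Psmb8 was at rank 41 in DMD_KD, 40 in DMD_ND and 44 in WT_ND, Psmb10 at rank 42 in each group, and Psmb9 at rank 44 in DMD_KD, 44 in DMD_ND and 45 in WT_ND. Psme1 was at rank 18 in DMD_KD, 15 in DMD_ND and 18 in WT_ND, among the constitutive subunits. Psma8, the testis form of an alpha subunit, was at 0 reads in 15 of 16 libraries and at 2 reads in a DMD_ND library, and neither it nor Psme1-ps1 passed the filter of at least 1 FPKM in at least 4 libraries.

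The comparison of DMD_ND with WT_ND asks how the Dmd mutation altered proteasome transcripts on the normal diet. On the deposited scale the 3 inducible catalytic subunits rose in mutant muscle, while their 3 constitutive partners and most cap subunits fell; under TPM scaling the partners and cap subunits changed sign. Of 45 tested members, 4 were higher in DMD_ND (limma on log2(FPKM + 1), Benjamini-Hochberg adjusted p under 0.05), against 31.5% of all 12119 tested genes. A further 24 members were lower, against 34.3% of all tested genes, and 17 did not pass; in either direction 65.7% of all tested genes were called. The median log2 fold change of the members was -0.29, beside -0.04 over all tested genes. Under TPM scaling 41 members were higher and 0 lower, with a median of 0.70 beside 0.83 over all tested genes. Of all tested genes, 70.7% were then called higher and 5.94% lower. All DMD_ND libraries lay above all WT_ND libraries for 4 members (26.8% of all tested genes) and below them for 21 (28.3%).

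Psmb8, the inducible subunit of the chymotrypsin-like site, ranged in DMD_KD from 5.27 FPKM over a median of 6.56 to 18.3, in DMD_ND from 7.24 over 8.96 to 11.4, and was at 3.87, 1.93, 2.16 and 3.17 FPKM in the WT_ND libraries. Every mutant library lay above every wild-type library. In DMD_ND its mean of 9.34 ± 1.73 FPKM (SD, n = 6) stood against 2.78 ± 0.905 in WT_ND (n = 4), a log2 fold change of 1.47 with an SE of 0.25 (limma adjusted p = 6.87e-05). Psmb9 is the inducible subunit that takes the place of Psmb6. It ranged in DMD_KD from 3.94 over a median of 5.01 to 6.49 FPKM, and in DMD_ND from 5.12 over 6.03 to 6.58. In WT_ND it was at 3.03, 1.07, 1.97 and 1.51 FPKM. These groups did not overlap either, and DMD_ND over WT_ND was 1.31 (SE 0.15, limma adjusted p = 1.32e-06). Psmb10, the inducible subunit of the trypsin-like site, ranged in DMD_KD from 4.99 over a median of 6.65 to 9.66 FPKM, in DMD_ND from 5.78 over 6.78 to 8.14, and was at 4.95, 2.97, 5.02 and 2.99 FPKM in WT_ND. All DMD_ND libraries lay above WT_ND, whereas the lowest DMD_KD library lay within the WT_ND range, and DMD_ND over WT_ND was 0.67 (SE 0.16, limma adjusted p = 0.00158). These rises kept their direction and their call in every other setting in which the gene was tested, TPM included. They rest on few reads in wild-type muscle: 42 to 73 per WT_ND library for Psmb8, 39 to 65 for Psmb9 and 148 to 210 for Psmb10.

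**Figure D2:**
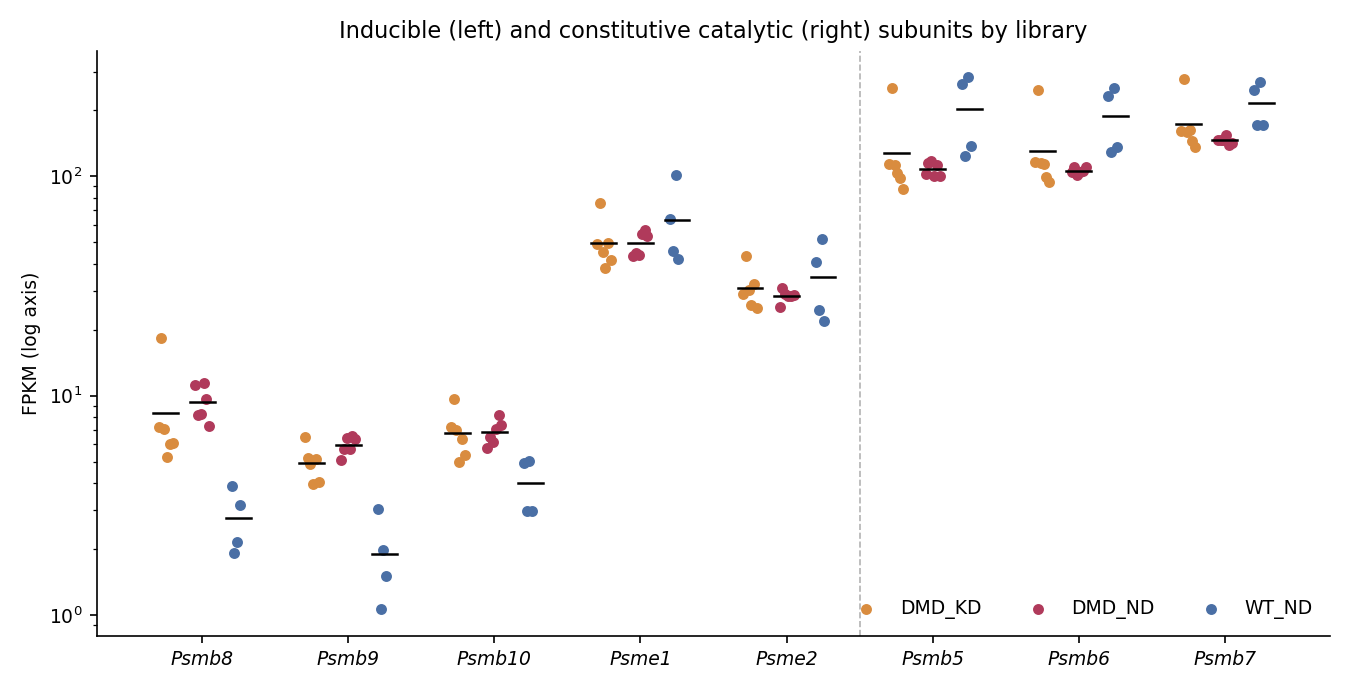
FPKM on a log axis for the inducible subunits (left of the dashed line) and the constitutive catalytic subunits (right), with a point per library and a bar at the group mean, for DMD_KD, DMD_ND and WT_ND. Psmb8 and Psmb9 of every mutant library lie above all WT_ND libraries, and 1 DMD_KD library, replicate 3, stands above the rest of its group for Psmb8 (18.3 FPKM) and for Psmb5 (251.8 FPKM).

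Psmb8 and Psmb9 lie beside the peptide transporter genes Tap1 and Tap2 on chromosome 20 (mRatBN7.2 as deposited): Psmb8 at 4652159 to 4655283, Tap1 at 4656263 to 4666901 and Psmb9 at 4666046 to 4672512. Tap1 and Psmb9 run on opposite strands and share 856 bases. Whether reads were counted by strand is not stated, so reads of the shared stretch cannot be told apart. Tap1 itself was at 4.43 ± 0.688 FPKM in DMD_KD (SD, n = 6), 5.70 ± 0.990 in DMD_ND (n = 6) and 1.75 ± 0.638 in WT_ND (n = 4). In all, 16 of the 47 members overlap another gene of the table.

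RNA came from whole muscle, so a change in the number of cells of a type and a change in RNA per cell cannot be told apart. Of all tested genes, 31.5% were called higher and 34.3% lower in DMD_ND than in WT_ND, and 27.3% and 31.1% in DMD_KD. Markers of immune cells moved with the inducible catalytic subunits. Of these, 16 of 16 macrophage and leukocyte markers were higher in DMD_ND than in WT_ND, and 16 of 16 in DMD_KD than in WT_ND. Among them Ptprc and Itgam reached at most 0.237 and 0.410 FPKM in WT_ND and passed the filter only through mutant libraries. The summed level of the 16 ranged over 437.1 to 707.1 FPKM in DMD_KD and 478.1 to 927.1 in DMD_ND, against 30.8 to 75.6 in WT_ND. The 8 T and NK cell markers in the table summed to 4.59 to 7.98 FPKM in DMD_KD and 4.93 to 8.49 in DMD_ND, against 1.11 to 1.55 in WT_ND. Cd3d, a T cell receptor component, was at 0 in all 4 WT_ND libraries. The 3 tested markers, Cd8a, Cd2 and Nkg7, reached at most 0.329, 0.385 and 0.600 FPKM in WT_ND. They passed the filter of 1 FPKM only through mutant libraries, so their higher calls in each mutant group were favoured by the filter. Mature fibre markers were lower than in WT_ND in 6 of 6 cases in each mutant group, although under TPM Acta1 and Tnnt3 turned positive for DMD_KD (0.009 and 0.04). Fibro-adipogenic progenitor markers were higher than in WT_ND in 7 of 7 tested cases in each mutant group, and their summed level ranged over 281.5 to 616.1 FPKM in DMD_KD and 499.5 to 812.9 in DMD_ND, against 60.3 to 159.4 in WT_ND. Of 6 satellite cell and regenerating fibre markers, 6 were higher in DMD_KD and 4 in DMD_ND than in WT_ND, with sums of 121.3 to 182.9 FPKM in DMD_KD and 151.7 to 230.4 in DMD_ND, against 45.6 to 59.9 in WT_ND. Pax7, among them, reached at most 0.855 FPKM in WT_ND and passed the filter only through mutant libraries. Of 4 tested endothelial markers, 0 were higher and 2 lower in each mutant group on the deposited scale, with a median of 0.36 in DMD_KD and 0.45 in DMD_ND under TPM. Mitochondrial transcripts took on average 15.6% of the reads in DMD_KD and 13.1% in DMD_ND, against 23.0% in WT_ND. The part of these markers and of the mitochondrial share in the proteasome results was not tested.

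The balance between each inducible subunit and the partner it replaces was compared within each library, where the scaling between libraries cancels. Psmb8 made up 4.85 to 6.77% of the summed FPKM of Psmb8 and Psmb5 in DMD_KD libraries and 6.62 to 10.2% in DMD_ND, against 1.45, 1.54, 0.758 and 2.25% in WT_ND. The log2 ratio of Psmb8 to Psmb5 averaged -3.55 ± 0.316 in DMD_ND (SD, n = 6) and -6.14 ± 0.659 in WT_ND (n = 4), a difference of 2.59 (SE 0.35, exact permutation of the libraries, two-sided, p = 0.00952, with adjusted p = 0.0122 over 9 ratio tests). Psmb9 made up 2.07 to 5.31% of the pair with Psmb6 in DMD_KD and 4.67 to 5.91% in DMD_ND, against 1.29, 0.815, 0.774 and 1.10% in WT_ND, with a difference of 2.52 between DMD_ND and WT_ND (SE 0.19, exact permutation p = 0.00952, adjusted p = 0.0122). Psmb10 made up 2.98 to 4.31% of the pair with Psmb7 in DMD_KD and 3.79 to 5.56% in DMD_ND, against 1.95, 1.71, 1.83 and 1.71% in WT_ND, with a difference of 1.35 (SE 0.10, exact permutation p = 0.00952, adjusted p = 0.0122). For each pair the mutant libraries all lay above the wild-type libraries, and 0.00952 is the smallest p that 6 against 4 libraries can give.

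**Figure D3:**
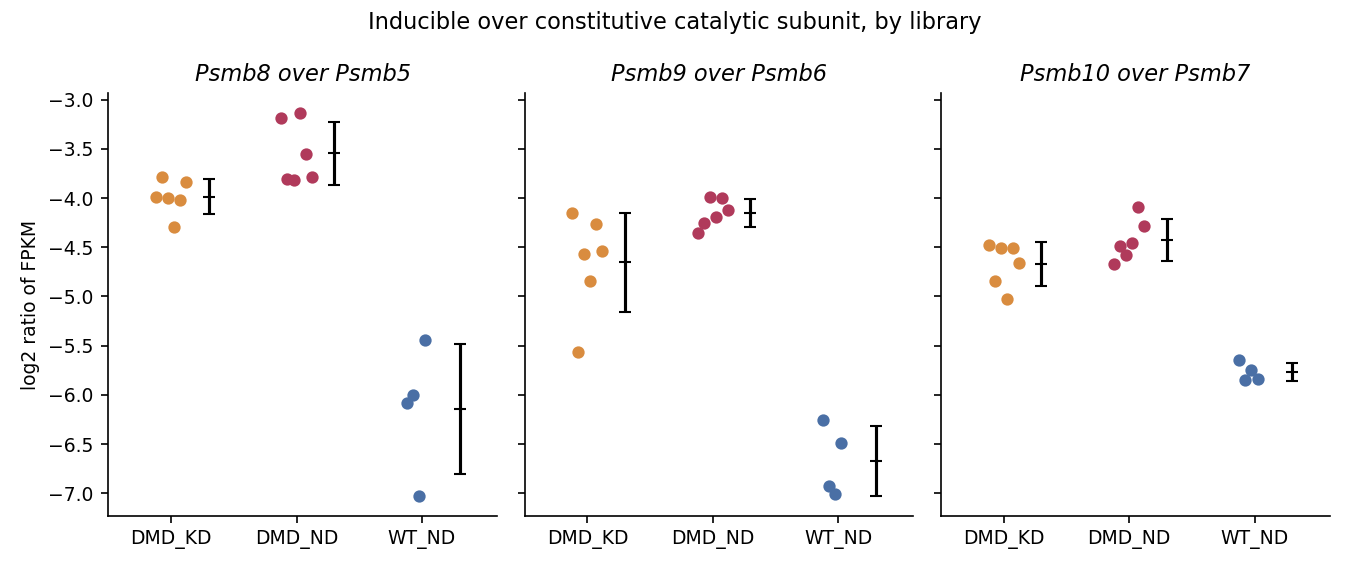
Log2 ratio of FPKM of each inducible catalytic subunit to its constitutive partner, with a point per library and the mean and SD beside it, for DMD_KD, DMD_ND and WT_ND. Every mutant library lies above every WT_ND library in the 3 panels, and DMD_KD overlaps DMD_ND with lower means.

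Between the diets the same ratios were lower in DMD_KD for the first and the second pair. Psmb8 to Psmb5 averaged -3.99 ± 0.178 in DMD_KD and -3.55 ± 0.316 in DMD_ND (SD, n = 6 each), a difference of -0.44 (SE 0.15, exact permutation p = 0.00866, adjusted p = 0.0122). Psmb9 to Psmb6 averaged -4.65 ± 0.507 in DMD_KD and -4.15 ± 0.143 in DMD_ND (SD, n = 6 each), a difference of -0.50 (SE 0.21, exact permutation p = 0.0195, adjusted p = 0.0219). Without DMD_KD replicate 3 that difference was -0.32 (adjusted p = 0.0438, exact permutation). Psmb10 to Psmb7 differed by -0.25 (SE 0.13), which did not pass (exact permutation p = 0.0866, adjusted p = 0.0866). The diet groups overlapped for every pair, and the inducible share of the pair averaged 5.96% in DMD_KD and 8.01% in DMD_ND for Psmb8. It averaged 3.98% in DMD_KD and 5.34% in DMD_ND for Psmb9, and 3.81% in DMD_KD and 4.48% in DMD_ND for Psmb10. Between the same groups 0 of 16 macrophage and leukocyte markers were called, 14 of them negative, and 0 of 6 mature fibre markers, 6 of them positive (4 under TPM). Beside these, 1 of all 12119 tested genes was called, and their median log2 fold change was -0.006 (-0.24 under TPM). Of 7 fibro-adipogenic progenitor markers 0 were called and 6 were negative, with a median of -0.36 (-0.63 under TPM), and of 6 satellite cell and regenerating fibre markers 0 were called and 4 were negative. The part of these markers in these ratios was not tested.

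The inducible activator subunits did not move with the inducible catalytic ones on the deposited scale. Psme1 ranged in DMD_KD from 38.1 over a median of 47.1 to 75.2 FPKM, in DMD_ND from 43.4 over 49.2 to 57.1, and was at 64.1, 45.8, 101.3 and 42.1 FPKM in WT_ND. The WT_ND libraries lay on both sides of the mutant ones, and DMD_ND over WT_ND was -0.27 (95% interval -0.73 to 0.19, limma adjusted p = 0.288), or 0.74 under TPM scaling. Psme2 ranged in DMD_KD from 25.1 over a median of 29.7 to 43.3 FPKM, in DMD_ND from 25.3 over 28.6 to 31.1, and was at 40.6, 24.7, 51.8 and 21.9 FPKM in WT_ND. Its DMD_ND over WT_ND value was -0.19 (95% interval -0.61 to 0.22, limma adjusted p = 0.402), or 0.80 under TPM scaling, with the groups overlapping. The genes lie on chromosome 15 (mRatBN7.2), Psme1 at 29068729 to 29071890 and Psme2 at 29078500 to 29082946. Reads of Psme1 and of the similarly named Psme1-ps1 may be shared, and how such reads were treated is not stated.

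The constitutive catalytic subunits were lower in DMD_ND on the deposited scale and had the opposite sign under TPM. Psmb5 ranged in DMD_KD from 87.4 over a median of 107.6 to 251.8 FPKM, in DMD_ND from 99.9 over 107.8 to 116.9, and was at 262.7, 123.3, 282.5 and 137.9 FPKM in WT_ND. All DMD_ND libraries lay below all WT_ND libraries, and WT_ND replicates 1 and 4, with the lowest size factors, lay far above replicates 3 and 9. DMD_ND over WT_ND was -0.80 (SE 0.27, limma adjusted p = 0.0144), or 0.21 under TPM scaling. Psmb6 ranged in DMD_KD from 94.4 over a median of 114.4 to 246.6 FPKM, in DMD_ND from 101.6 over 105.2 to 109.9, and was at 231.8, 129.7, 252.8 and 135.9 FPKM in WT_ND. It showed the same division of the WT_ND libraries, with DMD_ND over WT_ND at -0.75 (SE 0.24, limma adjusted p = 0.0103), or 0.26 under TPM scaling. Psmb7 ranged in DMD_KD from 135.7 over a median of 159.6 to 278.3 FPKM, in DMD_ND from 138.3 over 146.2 to 154.7, and was at 248.7, 170.6, 269.3 and 171.5 FPKM in WT_ND, with DMD_ND over WT_ND at -0.53 (SE 0.18, limma adjusted p = 0.0173), or 0.48 under TPM scaling. Without WT_ND replicate 1 the fold changes of Psmb5 and Psmb7 no longer passed (limma adjusted p = 0.0623 and 0.0626), nor did they without WT_ND replicate 4 (0.0682 and 0.0737).

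Counts by class stand beside 34.3% of all tested genes called lower in DMD_ND than in WT_ND. In the fit limited to genes with a mean of at least 5 FPKM, that share was 46.2%. Among the structural core subunits, 3 of 6 tested alpha subunits were lower in DMD_ND (Psma1, Psma6 and Psma7, log2 -0.29 to -0.67). Of the noncatalytic beta subunits, 0 of 4 passed (Psmb1 to Psmb4, -0.06 to -0.25). All of these had positive values under TPM scaling. Of the cap ATPases, which unfold the substrate, 5 of 6 were lower and Psmc6 did not pass at 0.02. Psmc5 fell most, ranging from 40.8 over a median of 47.3 to 50.1 FPKM in DMD_ND against 97.9, 60.1, 107.6 and 68.9 FPKM in WT_ND. These groups did not overlap, and DMD_ND over WT_ND was -0.79 (SE 0.17, limma adjusted p = 0.000606), or 0.21 under TPM scaling. Of the non-ATPase cap subunits, 8 of 11 were lower, between Psmd11 at -0.24 and Psmd2, a large scaffold subunit of the cap, at -0.70, and the class ran from 0.31 to 0.84 under TPM scaling. Psmd8, Psmd13 and Psmd14, the deubiquitinase of the cap, did not pass, at -0.20, -0.16 and -0.20. The assembly factors, chaperones that act during core or cap formation, gave 2 of 5 lower (Psmg1 at -0.66 and Psmg2 at -0.34, both positive under TPM), with Psmg3, Psmg4 and Psmd5 not passing. Psmg4 was the highest of these at 0.21 (limma adjusted p = 0.265), and without WT_ND replicate 4, which lay at 38.1 FPKM against 22.0 to 24.8 in the other WT_ND libraries, it passed at 0.38 (adjusted p = 0.0417). Of the name matches that are no subunits, Psme3ip1 was lower at -0.42 and Psmc3ip did not pass at -0.08.

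The other activators and the inhibitor differed in direction. Psme3, which forms a nuclear activator ring that works without ubiquitin, ranged in DMD_KD from 14.4 over a median of 17.3 to 21.0 FPKM, in DMD_ND from 16.1 over 17.5 to 19.8, and was at 14.3, 10.8, 14.2 and 11.8 FPKM in WT_ND. Each mutant library lay above all WT_ND libraries, and DMD_ND over WT_ND was 0.44 (SE 0.12, limma adjusted p = 0.00459). Psme4, the large activator of the nucleus, ranged in DMD_KD from 13.7 over a median of 25.0 to 35.6 FPKM, in DMD_ND from 17.1 over 22.2 to 30.9, and was at 31.2, 58.6, 26.4 and 46.6 FPKM in WT_ND. These groups overlapped, and its DMD_ND over WT_ND value was -0.73 (SE 0.25, limma adjusted p = 0.0162), or 0.25 under TPM scaling, and it did not pass without WT_ND replicate 3 or 9 (adjusted p = 0.0754 and 0.0514, limma). Psmf1, an inhibitor of the core, had the largest fall of the members: it ranged from 8.34 over a median of 9.35 to 10.3 FPKM in DMD_ND against 25.4, 13.7, 24.3 and 13.4 FPKM in WT_ND. These groups did not overlap, and DMD_ND over WT_ND was -0.91 (SE 0.20, limma adjusted p = 0.000742), or 0.034 under TPM scaling.

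**Figure D4:**
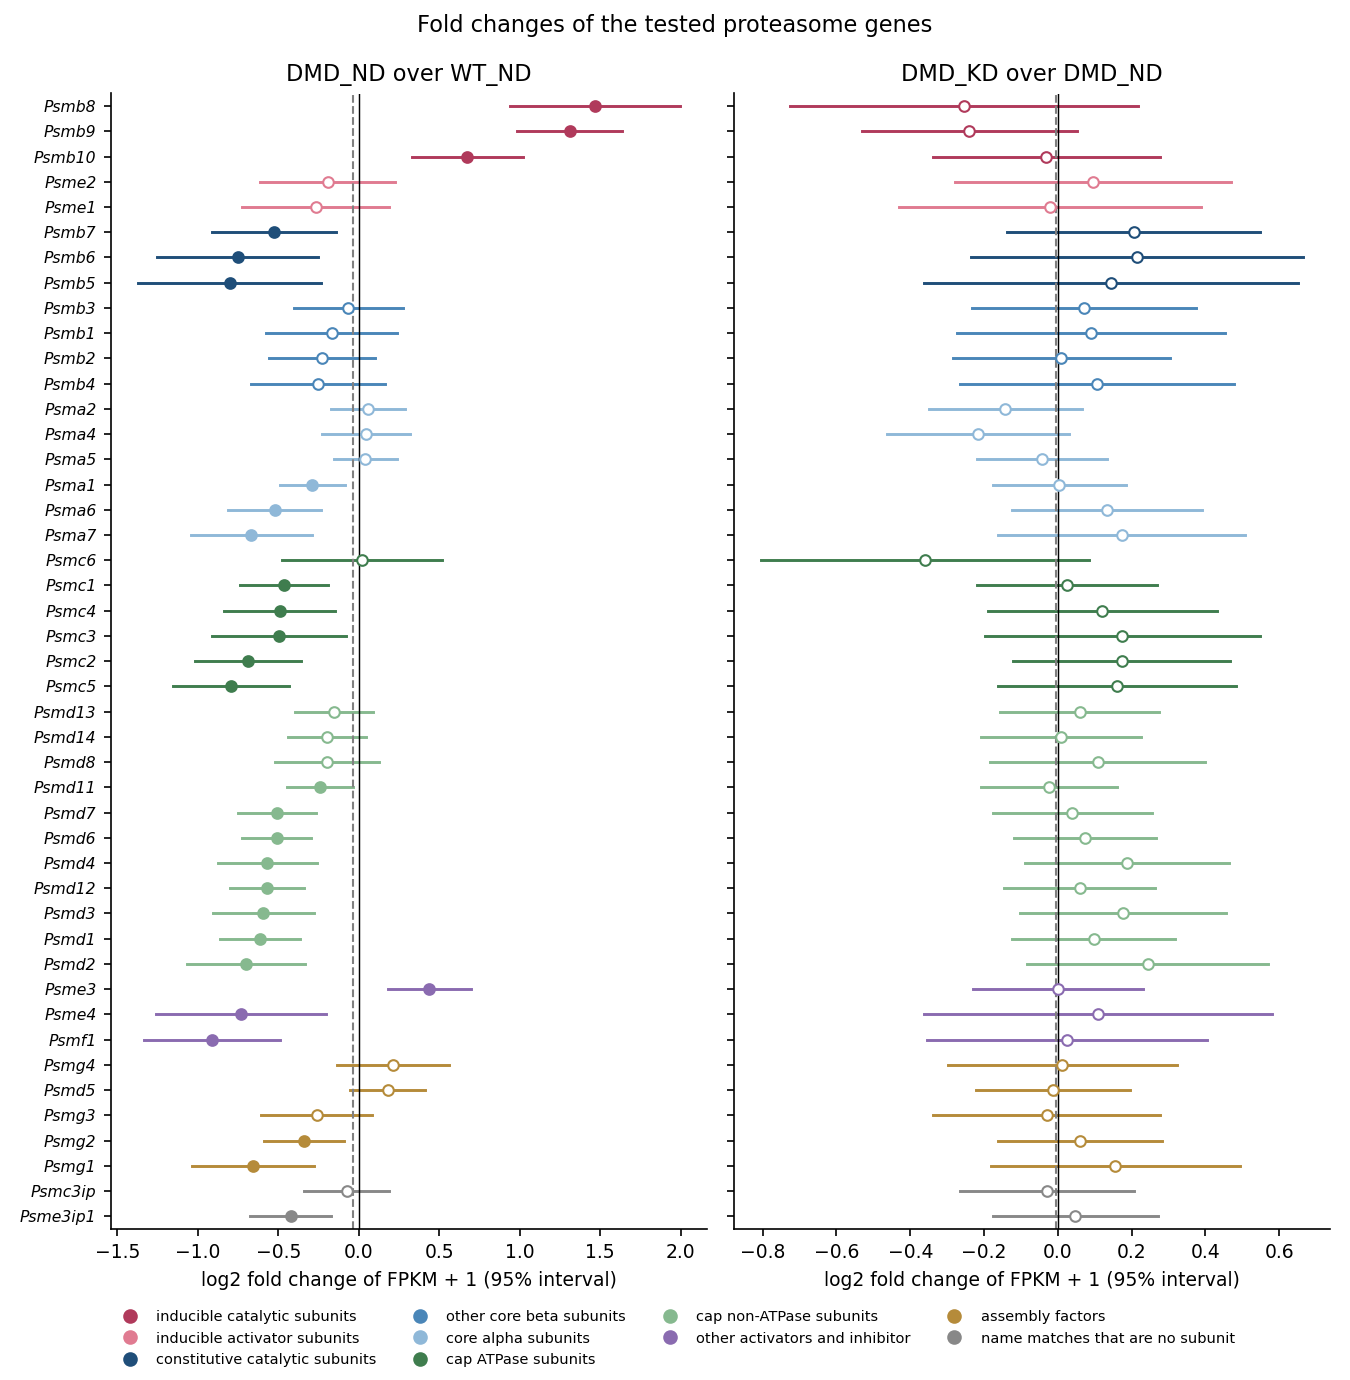
Log2 fold change of FPKM + 1 with its 95% interval for the 45 tested members, DMD_ND over WT_ND on the left and DMD_KD over DMD_ND on the right, coloured by role. Filled points passed the limma test on the deposited scale and the dashed line marks the median of all tested genes (-0.04 on the left); the 3 inducible catalytic subunits and Psme3 lie to the right of 0 as filled points on the left, and no point is filled on the right. Under TPM scaling the filled points left of 0 turn positive.

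The comparison of DMD_KD with DMD_ND asks whether the diet altered these transcripts in mutant muscle. No member passed the limma test: 0 of 45 were called, against 0.00825% of all tested genes, 1 in all. At an unadjusted p under 0.05 there were 0 members and 1727 genes. Leaving out any library, TPM scaling, library weights and limma voom on recovered reads likewise called 0 members. The largest share of all tested genes called in these fits was 0.767%, with library weights. For no member did all libraries of a diet lie above or below all of the other, which 0.842% of tested genes did above and 0.635% below. The smallest p among members was that of Psma4, an alpha subunit, which ranged from 43.9 over a median of 69.8 to 72.4 FPKM in DMD_KD against 68.7 over 75.7 to 77.0 in DMD_ND, a log2 value of -0.22 (95% interval -0.46 to 0.03, limma adjusted p = 0.389). Next came Psmb9 at -0.24 (95% interval -0.53 to 0.05, adjusted p = 0.414), Psmc6 at -0.36 (-0.80 to 0.08, adjusted p = 0.418), Psmd2 at 0.24 (-0.08 to 0.57, adjusted p = 0.448) and Psma2, an alpha subunit, at -0.14 (-0.35 to 0.07, adjusted p = 0.477). Psmc6 was at 6.12 FPKM in DMD_KD replicate 3 and at 11.2 to 19.4 in the other DMD_KD libraries, against 17.4 to 20.1 in DMD_ND. The inducible Psmb8 was at -0.25 (95% interval -0.73 to 0.22) and Psmb10 at -0.03 (-0.34 to 0.28). By sign alone, 12 members were negative and 33 positive on the deposited scale; under TPM scaling all 45 were negative, with a median of -0.21 beside -0.24 over all tested genes. The 3 constitutive catalytic subunits were between 0.14 and 0.21 (negative under TPM) and the 3 inducible ones negative under both scalings, and none of these passed.

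The comparison of DMD_KD with WT_ND shares its wild-type libraries with that of DMD_ND with WT_ND and its DMD_KD libraries with the diet comparison, so its calls are no independent repeat of either. It gave 4 members higher (27.3% of all tested genes), 20 lower (31.1%) and 21 not passing, with 58.3% of all tested genes called in either direction, and all 24 calls were also made in the same direction for DMD_ND. The members higher were Psmb8 at 1.21 (SE 0.25, limma adjusted p = 0.000551), Psmb9 at 1.07 (SE 0.15, adjusted p = 1.84e-05), Psmb10 at 0.64 (SE 0.16, adjusted p = 0.00287) and Psme3 at 0.44 (SE 0.12, adjusted p = 0.00549). All DMD_KD libraries lay above WT_ND for 3 members (20% of all tested genes) and below for 4 (17.3%). Psmb5 passed at -0.66 (adjusted p = 0.0442), a call lost on leaving out any single library other than DMD_KD replicate 3 and WT_ND replicates 3 and 9, while Psmb6 at -0.54 (adjusted p = 0.0616) and Psmb7 at -0.32 (adjusted p = 0.14) did not; under TPM scaling the 3 were positive. Without DMD_KD replicate 3, Psmb6 and Psmb7 passed at -0.74 and -0.47 (limma adjusted p = 0.00122 and 0.00575). The count of lower members was 11 of 45 without WT_ND replicate 1, 10 without WT_ND replicate 4 and 0 under TPM scaling. Of all tested genes, 26.6%, 27.2% and 4.73% were lower in these fits, so the members were not called lower more often than genes at large there. The pair ratios differed by 2.15 for Psmb8 to Psmb5, 2.02 for Psmb9 to Psmb6 and 1.10 for Psmb10 to Psmb7 (exact permutation p = 0.00952 and adjusted p = 0.0122 for each), with no overlap.

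Genes around the proteasome were taken from 3 lists. Beside their counts, 31.5% of all tested genes were called higher in DMD_ND than in WT_ND, and 34.3% lower. Of 21 proteasome-associated genes and regulators tested, 2 were higher in DMD_ND than in WT_ND, 15 lower and 4 not passing, with a median of -0.47 on the deposited scale and 0.49 under TPM. Ecpas, a scaffold that binds the assembled proteasome, was lower at -1.56 (SE 0.15, limma adjusted p = 9.75e-08; -0.57 under TPM), with means of 30.6 FPKM in DMD_ND and 91.3 in WT_ND. The ubiquitin receptor Adrm1 was lower at -0.75 (0.25 under TPM), as were the shuttle factor genes Ubqln1 at -0.66 and Rad23b at -0.51 and the chaperone Bag6 at -1.07 (0.31, 0.49 and -0.08 under TPM). The small cap subunit Sem1 was higher at 0.50 and Nfe2l2 at 0.45, whereas Nfe2l1, the factor known for raising proteasome gene transcription when the proteasome is inhibited, was at 0.10 and did not pass (limma adjusted p = 0.477; 1.11 under TPM). The maturation factor Pomp did not pass at -0.27 (0.73 under TPM). Between the diets 0 of these 21 were called, against 1 of all 12119 tested genes.

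Of 13 tested genes for ubiquitin and muscle ubiquitin ligases, 1 was higher in DMD_ND, 6 lower and 6 not passing. In either direction 65.7% of all tested genes were called in this comparison, 31.5% higher and 34.3% lower. Rps27a, a ubiquitin fused to a ribosomal protein, was higher at 1.32 (SE 0.21, limma adjusted p = 2.71e-05). The atrophy ligase Fbxo32 was lower at -1.12 (SE 0.27, limma adjusted p = 0.00156; -0.16 under TPM) and Trim63, the other classical atrophy ligase, did not pass at -0.45 (adjusted p = 0.0906; 0.55 under TPM). The ligase component Asb2 was lower at -1.22 (-0.21 under TPM), the conjugating enzyme Ube2b at -0.84 and the polyubiquitin gene Ubb at -0.89 (0.17 and 0.11 under TPM). Between the diets 0 of 13 were called, against 1 of all 12119 tested genes. Fbxo32 averaged 29.5 FPKM in DMD_KD and 16.8 in DMD_ND, a log2 value of 0.85 (SE 0.24, limma adjusted p = 0.19).

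Again 31.5% of all tested genes were called higher in DMD_ND than in WT_ND, and 34.3% lower. Of 15 tested genes of interferon signalling and class I peptide loading, 10 were higher in this comparison, 2 lower and 3 not passing. The lower ones were Erap1, a peptidase that trims class I peptides, at -0.34 and the kinase Jak1 at -0.33 (0.55 and 0.65 under TPM), and those not passing were Jak2, Calr and Canx. The class I light chain B2m was at 1.90 (SE 0.14, limma adjusted p = 8.21e-09), with means of 436.7 FPKM in DMD_ND and 116.1 in WT_ND. The interferon regulatory factors Irf8 and Irf1 were at 1.74 and 1.55, the transporter Tap1 at 1.30, Nlrc5, the transactivator of class I genes, at 0.93 and the signalling factor Stat2 at 0.68, all of which passed. Irf8 reached at most 0.521 FPKM in WT_ND and met the filter of 1 FPKM only through mutant libraries, so its call was favoured by the filter. Ifng, which encodes interferon-gamma itself, was listed at 0 in 5 of 6 DMD_KD, 2 of 6 DMD_ND and 4 of 4 WT_ND libraries and reached 0.387 FPKM in a DMD_ND library. Between the diets 0 of 15 were called, against 1 of all 12119 tested genes, so the lack of calls says little about this list. By sign 12 of 15 were negative, beside a median of -0.006 over all tested genes. Irf1 was at -0.52 (SE 0.20, limma adjusted p = 0.273), Nlrc5 at -0.41 (adjusted p = 0.241), B2m at -0.34 (adjusted p = 0.263) and Tap1 at -0.30 (adjusted p = 0.325).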

How the data were processed

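Poly-A RNA of frozen tibialis anterior was sequenced, per the labels' protocols, which leave the strandedness of the library unstated. The submitters' processing notes name HISAT2 2.0.5, featureCounts 1.5.0-p3 and mRatBN7.2, with no annotation release and no word on multiply matching reads. The authors deposited FPKM per gene for 16 libraries, per the file headers. FPKM times gene length was a whole multiple of 1 read in 100% of values (tolerance 0.05), which gave back the reads, and the scaling matched median-of-ratios size factors.

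Groups come from the sample titles. Values were tested as log2(FPKM + 1), a scale that understates changes of low genes, with limma 3.58.1 (R 4.3.3; group means over 16 libraries, 13 residual degrees of freedom, eBayes trend and robust), with Benjamini-Hochberg adjustment over the 12119 genes that reached 1 FPKM in 4 or more libraries and calls at an adjusted p under 0.05. The fitting step was tested on simulated data. Ratios were compared by exact two-sided permutation (SciPy 1.17.1). Named were the inducible and constitutive catalytic subunits, Psme1 to Psme4, the 5 largest rises and falls, the 5 smallest p on the diet and, from each pathway list, the 4 smallest p plus fixed genes; Erap1, Jak1, Acta1, Tnnt3 and the further members given by class were named after their values were seen. Members and lists were chosen with earlier results of these data known. Alternatives were other filters, a pseudocount of 0.1, TPM, library weights, the replicate block, leaving out each library and, added after seeing the data, limma voom on recovered reads. Count-model tests were not run, since the deposited unit is FPKM.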

Additional observations from a re-analysis of the deposited data

Results flagged for a closer look

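Among 60 groups of values checked for a library apart from the rest, 8 held one. The threshold flags about 1 in 20 of independent groups. These groups are genes, on the plain FPKM scale, and ratios of the same 16 libraries, so the count cannot be read against it. Of the 8 cases, 7 were DMD_KD replicate 3. It was at 251.8 FPKM for Psmb5, against 87.4 to 114.0 in the other DMD_KD libraries, at 246.6 for Psmb6 against 94.4 to 115.7, and at 278.3 for Psmb7 against 135.7 to 162.4. For these 3 constitutive catalytic subunits it lay within or above the WT_ND range. The same library was at 18.3 FPKM for the inducible Psmb8, against 5.27 to 7.17 in the other DMD_KD libraries, while its Psmb9, at 5.22, lay within the range of the others. It was also at 118.4 FPKM for the cap subunit Psmd2 against 67.3 to 82.2, at 75.2 for the activator subunit Psme1 against 38.1 to 49.6, and at 41.9 for the assembly factor Psmg4 against 26.9 to 32.4. The remaining case was Psmg4 in WT_ND replicate 4, at 38.1 FPKM against 22.0 to 24.8 in the other WT_ND libraries.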

How the results depend on the processing

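Scaling decided the calls of the constitutive genes. Under TPM, DMD_ND over WT_ND gave 41 members higher and 0 lower, and DMD_KD over WT_ND gave 34 higher and 0 lower. Of all tested genes, 70.7% were then higher and 5.94% lower in DMD_ND, and 57.2% and 4.73% in DMD_KD. All 24 members lower in DMD_ND were positive under TPM. Among the genes named by rule, TPM values that changed sign, with a call on at least 1 scale, were for DMD_ND over WT_ND, Psmb5 0.21, Psmb6 0.26, Psmb7 0.48, Psmc5 0.21, Psmd2 0.31, Psme1 0.74, Psme2 0.80, Psme4 0.25 and Psmf1 0.034, and for DMD_KD over WT_ND, Psma2 0.63, Psmb5 0.081, Psmb7 0.42, Psmc5 0.10, Psmd2 0.28, Psme1 0.45, Psme2 0.63 and Psme4 0.10. With the replicate block 4 members were lower in DMD_ND and 2 in DMD_KD against WT_ND, and 4 were higher in each. Of all tested genes, that fit called 22.9% lower and 25.4% higher in DMD_ND, and 20.3% lower and 22.5% higher in DMD_KD. Psmb5, Psmb6, Psmb7, Psmc5, Psmd2 and Psmf1 lost their DMD_ND call in it. The numbers share no source in the labels: same-numbered libraries correlated between -0.656 and 0.407 (9 pairs), other pairs between -0.631 and 0.661 (75 pairs). Leaving out 1 library gave 4 to 6 higher and 17 to 24 lower members in DMD_ND, 0 of either between diets, and 4 to 6 higher and 10 to 25 lower in DMD_KD against WT_ND. Of all tested genes, 30.1 to 33.4% were then higher and 30.9 to 36.7% lower in DMD_ND, and 25.6 to 29.7% and 26.6 to 34.1% in DMD_KD. The lowest counts in DMD_KD, 11 and 10, came without WT_ND replicates 1 and 4, where 26.6% and 27.2% of all tested genes were lower. Across the fits without 1 library the Psmb8 to Psmb5 difference ranged over 2.30 to 2.83 for DMD_ND over WT_ND and -0.49 to -0.36 between diets. All 9 ratio differences kept their direction and their side of the threshold in the alternatives run, including the replicate block. The count models planned for recovered reads were not run. Depth limits Psmb8 and Psmb9 in wild-type muscle, with as few as 39 reads in a library.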
